A study of Rattus norvegicus with 16 samples.

Results

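The transcripts described here are the STAT factors Stat2, Stat3, Stat4, Stat5a, Stat5b and Stat6 and the SOCS inhibitors Socs1, Socs2 and Socs3. They were chosen by name as members of these families, with earlier results of these data known. Of the 9 genes, 8 had a transcript cluster (the set of probes for a transcript) of their own on the arrays, out of 15236 genes with such a cluster. No named cluster was found for Socs3, which is not analysed further. Rat myelinating cultures were grown from spinal cord cells of E15.5 Sprague-Dawley rat embryos, plated on a layer of astrocytes derived from neurospheres of the striata of rats at postnatal day 1. After 18 days in vitro (DIV) the cultures were left untreated (Control) or received humanFGF2, wtFGF2 or F2V2, and RNA of all groups was collected 24 h later, with 4 arrays in each group. humanFGF2 is the recombinant human growth factor and was given at 100 ng/ml, as was F2V2, a form of FGF2 that lacks the 26 N-terminal amino acids and was made to act through the receptor FGFR1. The labels do not say how wtFGF2 differs from humanFGF2, and its dose is not given in the sources used here, so its values are set beside those of the others with that limit. The cultures hold neurons, oligodendrocytes, astrocytes and microglia together, and a lower signal in such a mixture can come from fewer cells of a type or from less RNA per cell, which cannot be told apart.

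STAT proteins wait in the cytoplasm until a cytokine receptor brings Janus kinases (JAKs) together. The kinases phosphorylate the STAT, which pairs with another STAT, enters the nucleus and binds short palindromic elements in promoters. Stat2 works mainly downstream of type I interferon, where it works with Irf9 in the complex ISGF3, which binds the interferon-stimulated response element (ISRE). Stat3 serves cytokines that use the receptor gp130, such as Lif, Il11 and Cntf, and in astrocytes it is known for its part in reactive gliosis. Stat5a and Stat5b serve growth hormone, prolactin and many interleukins, Stat4 serves interleukin 12, and Stat6 serves interleukins 4 and 13. SOCS proteins are themselves induced by STATs and close the loop, Socs1 by blocking JAK kinases, Socs2 by dampening growth hormone receptor signalling and Socs3 by binding gp130. The arrays measure mRNA, not phosphorylation, so they report the amount of each transcript and not the activity of the protein.

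The promoters of Stat2, Stat5a and Stat6, the members above the floor whose group means spanned the most, and of Socs1, the member whose promoter held motif matches, are shown for comparison. Each is the 250 bases before the annotated start in the RefSeq annotation of GRCr8, written 5′ to 3′ on the strand of the gene. Capitals mark the letters TTCNNNGAA (the GAS element bound by STAT dimers) and GAAANNGAAA (the core of the ISRE), both searched on both strands.
Stat2, chr7:1286840-1287089, plus strand: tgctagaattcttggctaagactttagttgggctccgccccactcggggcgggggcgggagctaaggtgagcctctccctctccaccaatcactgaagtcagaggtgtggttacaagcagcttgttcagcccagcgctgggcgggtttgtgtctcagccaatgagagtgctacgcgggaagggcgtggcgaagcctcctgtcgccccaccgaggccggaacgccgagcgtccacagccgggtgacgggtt
Stat5a, chr10:86285609-86285858, plus strand: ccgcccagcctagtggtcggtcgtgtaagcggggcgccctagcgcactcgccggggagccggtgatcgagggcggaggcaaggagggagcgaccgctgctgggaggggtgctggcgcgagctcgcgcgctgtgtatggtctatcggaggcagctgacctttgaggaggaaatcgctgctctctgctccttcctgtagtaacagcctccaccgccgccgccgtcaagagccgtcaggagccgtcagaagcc
Stat6, chr7:65365255-65365504, plus strand: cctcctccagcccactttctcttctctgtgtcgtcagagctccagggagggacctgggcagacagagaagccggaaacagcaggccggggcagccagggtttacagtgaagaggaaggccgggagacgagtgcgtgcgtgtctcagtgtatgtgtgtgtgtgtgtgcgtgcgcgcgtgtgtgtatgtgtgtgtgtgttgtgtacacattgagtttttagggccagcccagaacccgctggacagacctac
Socs1, chr10:5389324-5389573, plus strand: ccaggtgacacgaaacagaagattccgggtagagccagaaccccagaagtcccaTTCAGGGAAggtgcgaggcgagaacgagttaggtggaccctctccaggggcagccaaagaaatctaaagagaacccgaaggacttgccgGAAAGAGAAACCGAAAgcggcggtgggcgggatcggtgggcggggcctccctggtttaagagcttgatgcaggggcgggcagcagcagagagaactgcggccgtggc

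Of the 9 genes, 8 had a promoter entry, Socs2 being the exception. Socs1 held the only matches among them. Its TTCNNNGAA match, TTCAGGGAA, began 196 bases before the start. GAAAGAGAAA and GAAACCGAAA, which share 4 bases with each other, began 107 and 101 bases before it. Across 33469 rat promoters of this length, 7.67% held TTCNNNGAA and 3.41% held GAAANNGAAA. For the other members the search says only that these letters are not in this window. Stat5b, Stat5a and Stat3 follow each other on chromosome 10 with no protein-coding gene between them in that annotation.

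Stat2 fell with humanFGF2 and with wtFGF2 and stayed close to the Control level with F2V2. Its log2 values were 9.52, 9.76, 9.72 and 9.72 in Control, 9.03, 8.99, 8.84 and 8.95 with humanFGF2, 9.43, 9.51, 9.75 and 9.53 with F2V2, and 9.11, 8.97, 8.93 and 9.01 with wtFGF2. All 8 arrays of humanFGF2 and wtFGF2 lay below all 8 arrays of Control and F2V2, and within each of these pairs the groups overlapped. The mean was 9.68 ± 0.11 in Control (SD, n = 4) and 8.95 ± 0.08 with humanFGF2 (SD, n = 4), a difference of -0.73 ± 0.08 (SE) or 1.65-fold, with a limma adjusted p of 2.98e-06. With wtFGF2 the difference from Control was -0.68 ± 0.07 (adjusted p = 1.21e-06). For F2V2 it was -0.12 (95% confidence interval -0.29 to 0.04, adjusted p = 0.249). The direct comparison of the ligands at matched dose and time gave a value 1.52-fold lower with humanFGF2 than with F2V2 (log2 difference -0.60 ± 0.08, adjusted p = 8.46e-05).

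**Figure D1:**
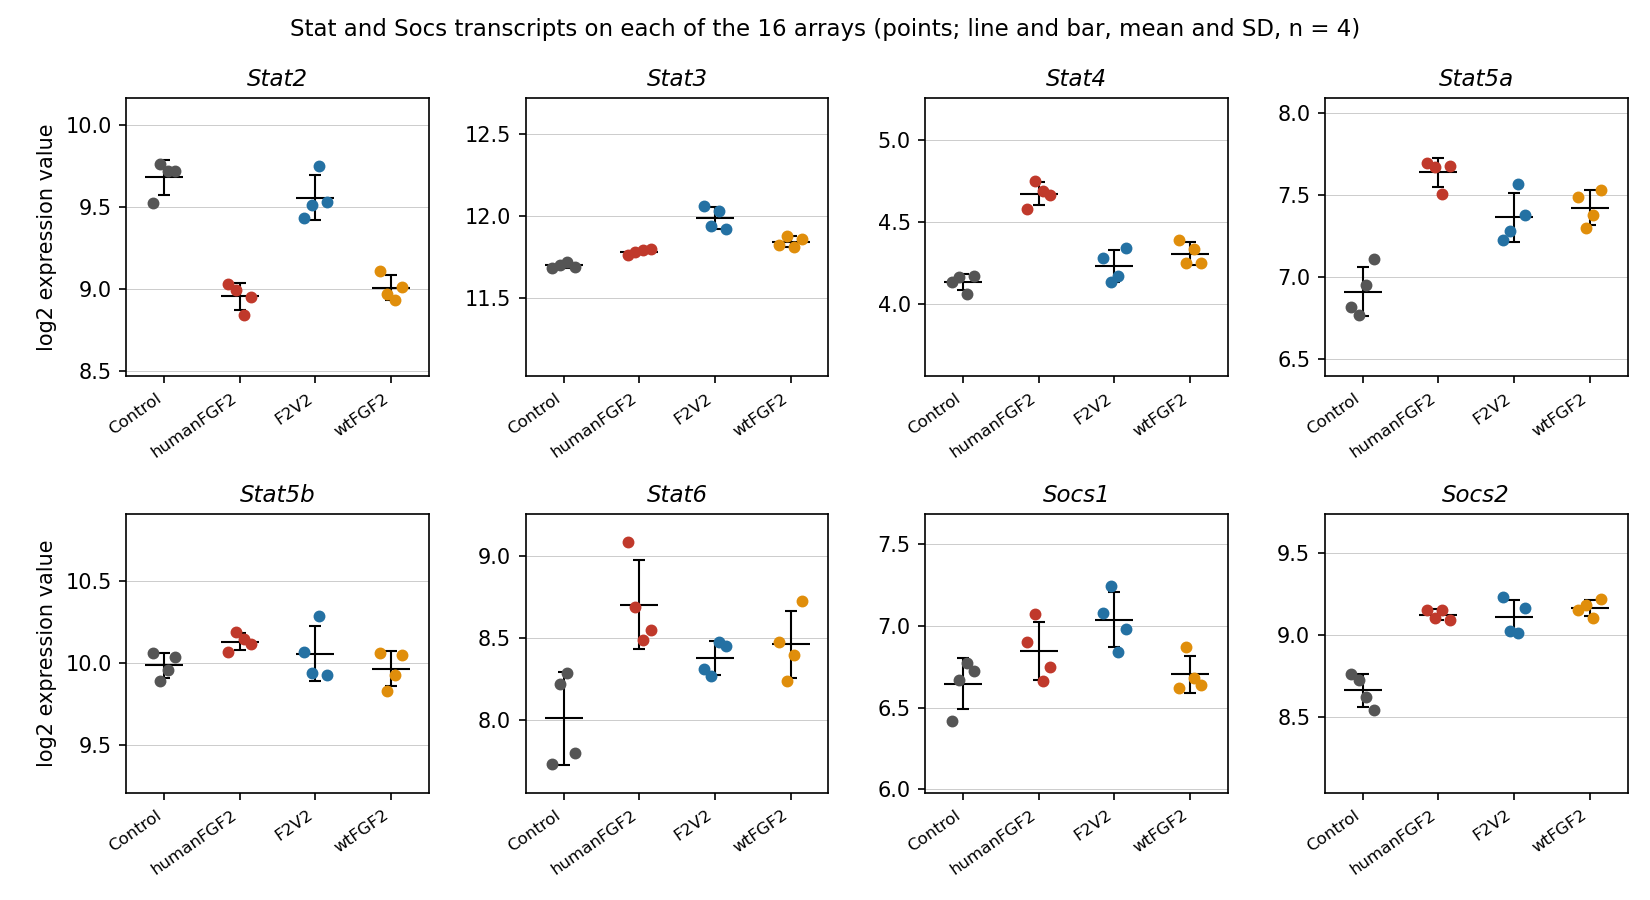
Log2 expression value of each member (vertical axis, every panel spanning the same length of scale or more) on the 4 arrays of each group (points), with the group mean and SD (line and bar). Stat2 arrays of humanFGF2 and wtFGF2 all lie at or below 9.11, under every Control and F2V2 array, whereas Stat5a and Socs2 lie above Control with each ligand.

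Both of 2 conditions had to be met for a call, an adjusted p under 0.05 and 1.4-fold or more between the group means (0.485 on the log2 scale). Against Control, humanFGF2 called 3 of the 8 members higher (Stat4, Stat5a and Stat6) and 1 lower (Stat2). Over all 16377 clusters tested, 10.4% were called higher and 8.72% lower in this comparison. F2V2 called none of the 8 by limma, and none by contrasts without the shared prior of limma either, with 5 of the 8 at an unadjusted p under 0.05, while 5.74% of all clusters were called higher and 3.64% lower. By adjusted p alone, 4 members were higher with F2V2 (Stat3, Stat5a, Socs1 and Socs2), each by less than 1.4-fold. In wtFGF2 cultures 2 members were called higher (Stat5a and Socs2) and 1 lower (Stat2), beside 6.99% and 6.1% of all clusters. The median log2 difference of the 8 members from Control was 0.33 with humanFGF2, 0.33 with F2V2 and 0.16 with wtFGF2, and over all clusters it was 0.021, 0.006 and 0.032. These comparisons share the same 4 Control arrays.

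Stat5a rose with humanFGF2 by 1.66-fold, from 6.91 ± 0.15 to 7.64 ± 0.09 (SD, n = 4 each; log2 difference 0.73 ± 0.09 SE, adjusted p = 1.05e-05). Its Control arrays read 6.82, 6.77, 6.95 and 7.11, the humanFGF2 arrays 7.70, 7.67, 7.51 and 7.68, the F2V2 arrays 7.23, 7.28, 7.57 and 7.38, and the wtFGF2 arrays 7.49, 7.30, 7.38 and 7.53. No ligand array reached down to the highest Control array, and the ligand groups overlapped with each other. The difference from Control was 0.45 ± 0.09 with F2V2 (1.37-fold, adjusted p = 0.00116), just under the fold threshold, and 0.51 ± 0.08 with wtFGF2 (1.43-fold, adjusted p = 0.000119), just over it. humanFGF2 exceeded F2V2 by 0.28 (95% confidence interval 0.09 to 0.46, adjusted p = 0.0375), which is under 1.4-fold, and wtFGF2 and F2V2 next to each other in the order differed by 0.06 (-0.12 to 0.24). Calls this near the threshold turned on single arrays: without Control replicate 1, Control replicate 2 or wtFGF2 replicate 4 the wtFGF2 difference was 0.48, 0.47 and 0.48, and without Control replicate 4 or F2V2 replicate 1 the F2V2 difference was 0.52 and 0.50.

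Stat5b, the close paralogue that lies beside Stat5a, was not called in any comparison. Its arrays ran from 9.89 to 10.06 in Control, 10.07 to 10.19 with humanFGF2, 9.93 to 10.29 with F2V2 and 9.83 to 10.06 with wtFGF2. The difference from Control was 0.14 with humanFGF2 (95% confidence interval -0.02 to 0.30, adjusted p = 0.138). The intervals for F2V2 (-0.09 to 0.23) and wtFGF2 (-0.18 to 0.14) both included 0. Since the coding sequences of Stat5a and Stat5b are alike and the probe sequences were not examined, some signal may be shared between their clusters.

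Stat3 kept to a narrow range, and on the deposited scale its 4 groups did not overlap. Control arrays lay between 11.68 and 11.72, humanFGF2 arrays between 11.76 and 11.80, wtFGF2 arrays between 11.81 and 11.88 and F2V2 arrays between 11.92 and 12.06. F2V2 thus gave the highest values, 1.22-fold above Control (log2 difference 0.29 ± 0.05, adjusted p = 0.000269) and 1.15-fold above humanFGF2 (adjusted p = 0.00498). wtFGF2 stood 0.14 above Control (adjusted p = 0.0147). The neighbours in this order were not separated by the test across all clusters in every case: humanFGF2 differed from Control by 0.08 (adjusted p = 0.169, and -0.01 after quantile normalization), wtFGF2 from humanFGF2 by 0.06 (adjusted p = 0.489) and wtFGF2 from F2V2 by -0.15 (adjusted p = 0.0678).

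Stat6, the factor of interleukins 4 and 13, rose 1.62-fold with humanFGF2, from 8.01 ± 0.28 to 8.71 ± 0.27 (SD, n = 4 each; log2 difference 0.70 ± 0.14 SE, adjusted p = 0.00107). Its SD was the widest of the members in Control, humanFGF2 and wtFGF2. The Control arrays read 7.73, 8.22, 8.29 and 7.80, the humanFGF2 arrays 9.09, 8.69, 8.49 and 8.55, the F2V2 arrays 8.31, 8.27, 8.48 and 8.45, and the wtFGF2 arrays 8.48, 8.24, 8.40 and 8.73. humanFGF2 arrays all exceeded the Control and F2V2 arrays, while F2V2 and wtFGF2 both overlapped Control. The differences from Control were 0.37 with F2V2 (95% confidence interval 0.06 to 0.68, adjusted p = 0.0639) and 0.45 with wtFGF2 (adjusted p = 0.0179, 1.37-fold). Without Control replicate 2, Control replicate 3 or wtFGF2 replicate 2 the wtFGF2 difference was 0.52, 0.55 and 0.53 and was called. humanFGF2 and F2V2 differed by 0.33 (0.02 to 0.64, adjusted p = 0.125).

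Stat4 gave low values on every array, between 4.06 and 4.75, near the floor of the scale. Log2 differences there were read as lower bounds of the change, a reading that was not tested. It read 4.13, 4.16, 4.06 and 4.17 in Control, 4.58, 4.75, 4.69 and 4.66 with humanFGF2, 4.28, 4.13, 4.17 and 4.34 with F2V2, and 4.39, 4.25, 4.33 and 4.25 with wtFGF2. The 4 humanFGF2 arrays stood above the other 12. The measured rise with humanFGF2 was 1.45-fold (log2 difference 0.54 ± 0.06, adjusted p = 4.13e-06). The humanFGF2 mean also exceeded F2V2 by 0.44 (adjusted p = 0.000135) and wtFGF2, whose difference from humanFGF2 was -0.36 (adjusted p = 0.000589). Neither was called, and if read as lower bounds they set no upper limit on the change. The paper's pathway list marks Stat4 as down-regulated by FGF2 relative to F2V2, the opposite direction. The reason for this conflict was not tested. Stat4 is best known from T and natural killer cells. Of 10 markers of those cells measured, 9 had a mean under 5, their mean level ranged from 4.65 to 4.72 on Control arrays and 4.65 to 4.76 on humanFGF2 arrays, and none was called with any ligand.

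Socs2 stood higher with all 3 ligands, by 0.45 to 0.50 on the log2 scale. Its arrays read 8.76, 8.72, 8.62 and 8.54 in Control, 9.15, 9.10, 9.15 and 9.09 with humanFGF2, 9.23, 9.02, 9.01 and 9.16 with F2V2, and 9.15, 9.18, 9.10 and 9.22 with wtFGF2. All 12 ligand arrays lay above the 4 Control arrays. The differences from Control were 0.46 ± 0.06 (humanFGF2, 1.38-fold, adjusted p = 3.85e-05), 0.45 ± 0.06 (F2V2, 1.36-fold, adjusted p = 0.00012) and 0.50 ± 0.06 (wtFGF2, 1.42-fold, adjusted p = 3.5e-06). Only the last passed 1.4-fold, and it did not without Control replicate 4 (0.46) or wtFGF2 replicate 4, while the humanFGF2 difference did pass without Control replicate 1 (0.49). Between humanFGF2 and F2V2 the difference was 0.01 (95% confidence interval -0.12 to 0.15, adjusted p = 0.917). Relative to the median of each array the wtFGF2 difference was 0.48, under the threshold.

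Socs1, the JAK inhibitor whose promoter carries the matches shown above, was highest with F2V2. It read 6.42, 6.67, 6.77 and 6.72 in Control, 6.90, 7.07, 6.66 and 6.75 with humanFGF2, 7.08, 7.24, 6.84 and 6.98 with F2V2, and 6.62, 6.87, 6.68 and 6.64 with wtFGF2. F2V2 arrays did not overlap Control, and humanFGF2 and wtFGF2 arrays did. F2V2 exceeded Control by 0.39 ± 0.11 (1.31-fold, adjusted p = 0.0121). The difference from Control was 0.20 with humanFGF2 (95% confidence interval -0.03 to 0.43) and 0.06 with wtFGF2 (-0.16 to 0.27). Set directly against F2V2, humanFGF2 differed by -0.19 (-0.42 to 0.04, adjusted p = 0.244) and wtFGF2 by -0.33 (-0.54 to -0.11, adjusted p = 0.089), so the order of the ligands was not resolved by the test across all clusters.

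**Figure D2:**
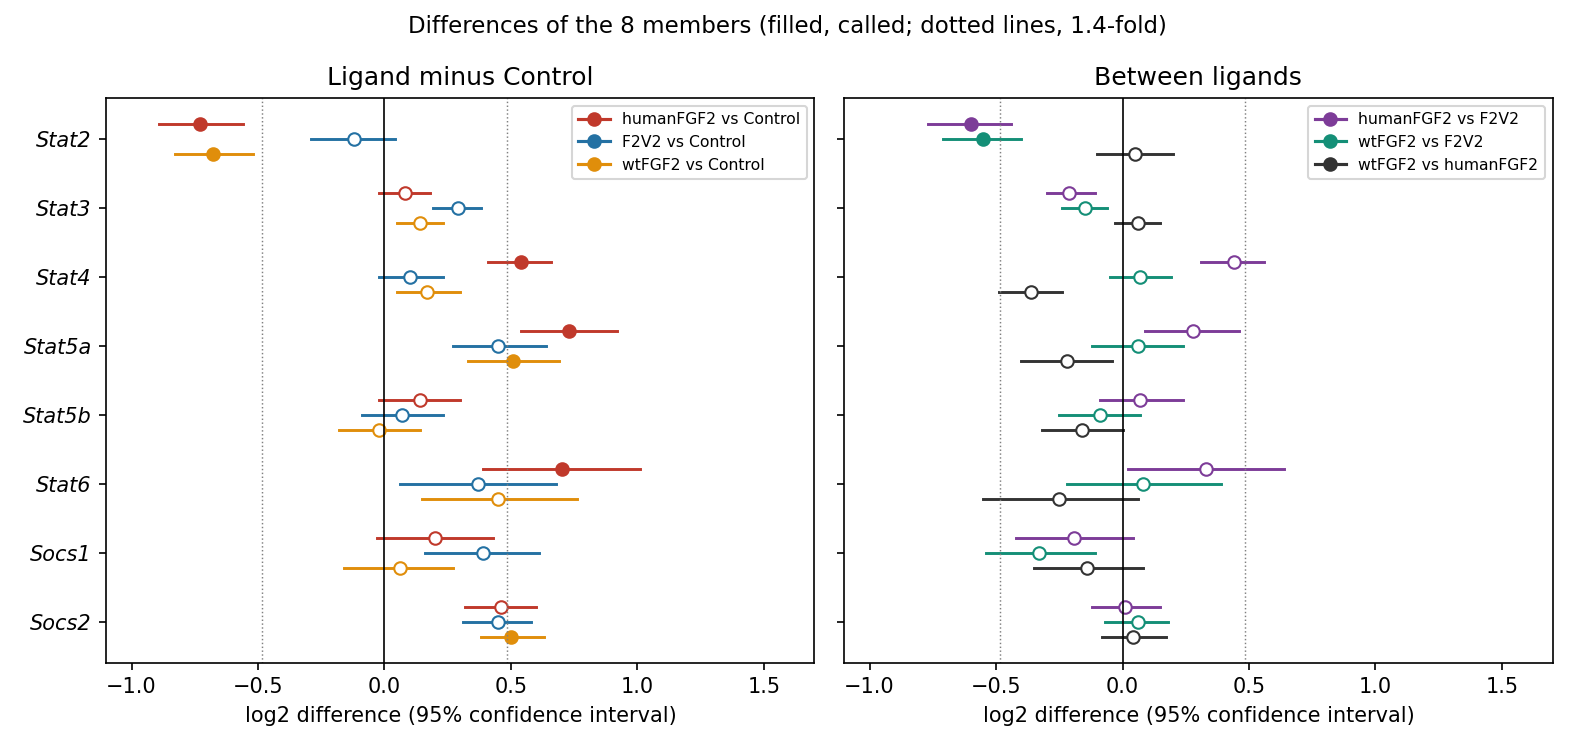
Log2 difference of each member (rows) with its 95% confidence interval (horizontal axis), for each ligand against Control (left) and between ligands (right); filled points were called and dotted lines mark 1.4-fold. Stat2 is the only member called between ligands, at -0.60 for humanFGF2 against F2V2 and -0.55 for wtFGF2 against F2V2.

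Among the direct comparisons between ligands Stat2 was the only member called. It was lower with humanFGF2 than with F2V2, where 2.86% of all clusters were called higher and 2.89% lower. It was also lower with wtFGF2 than with F2V2 (log2 difference -0.55 ± 0.07, 1.47-fold, adjusted p = 0.000294), beside 0.519% of clusters called higher and 0.885% lower. wtFGF2 against humanFGF2 called none of the 8 members by limma with or without its shared prior (3 had an unadjusted p under 0.05), with 0.69% of clusters called higher and 1.24% lower, and for Stat2 the interval of the difference was -0.10 to 0.20. In the 6 comparisons together 9 of the 48 member changes were called, in 5 of the members, and Stat3, Stat5b and Socs1 were in none.

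Of further members of the families, 5 were measured. Socs5, known as an inhibitor of epidermal growth factor and interleukin 4 signalling, rose with humanFGF2 by 0.67 ± 0.06 (SE, adjusted p = 5.67e-07), and Cish, a STAT5 target that inhibits STAT5 in turn, rose by 0.66 ± 0.08 (adjusted p = 8.65e-06). The differences with F2V2 were 0.21 (Socs5) and 0.41 (Cish), under 1.4-fold. Socs6 and Socs7 were called in no comparison, with humanFGF2 differences of 0.27 and -0.10.

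None of the 12 measured JAK kinases and further STAT inhibitors was called, of 16 listed, in any of the 6 comparisons by limma with or without its shared prior, with 1 to 4 per comparison at an unadjusted p under 0.05. Jak1, which most cytokine receptors use, differed from Control by 0.12 with humanFGF2 and 0.07 with F2V2. Jak2 differed by -0.10 and 0.06, and Tyk2, the kinase of the type I interferon receptor, by 0.05 and -0.03. The lowest adjusted p with humanFGF2 belonged to Ptpn1, a phosphatase that acts on JAKs, at 0.33 (adjusted p = 2.92e-05), and the lowest with F2V2 to Pias3, an inhibitor of Stat3, at 0.23 (adjusted p = 0.049).

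Of 30 listed cytokines that use these factors, 27 were measured, 19 of them with means under 5. Each ligand called 3 higher and 3 lower, a number that for humanFGF2 is near the 10.4% and 8.72% of all clusters; the sizes of the 3 rises were larger than any difference of the members. Lif, which signals through gp130 and Lifr, rose from 6.25 in Control to 10.54 with humanFGF2, 8.25 with F2V2 and 8.79 with wtFGF2, differences of 4.29, 2.00 and 2.54. Il11 rose by 5.57, 2.65 and 3.69, read as lower bounds, from a Control mean of 4.89. Clcf1, a further gp130 cytokine, rose by 3.85, 2.25 and 2.63. All 3 were also higher with humanFGF2 than with F2V2, by 2.29 (Lif, adjusted p = 4.57e-09), 2.92 (Il11) and 1.60 (Clcf1). Cntf, a gp130 cytokine made by astrocytes, fell by 1.03 with humanFGF2, 0.61 with F2V2 and 0.86 with wtFGF2. The other 2 that fell, named after their values were seen, were Ctf1 (-0.93 with humanFGF2) and Il12a (-0.80, read as a lower bound of its fall since the ligand means were under 5). The type I interferon genes Ifnb1 and Ifna4 had means between 4.15 and 4.73 in all groups and were not called.

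Of 32 listed receptors, 19 were measured. Il6st, which encodes gp130, and Ifnar2 had no named cluster. Osmr, the oncostatin M receptor and itself a Stat3 target, rose by 1.20 with humanFGF2, 1.33 with F2V2 and 1.16 with wtFGF2. Lifr fell with humanFGF2 by 0.94 (adjusted p = 9.6e-08) and with wtFGF2 by 0.54, differed by -0.15 with F2V2, and was lower with humanFGF2 than with F2V2 (-0.80, adjusted p = 3.36e-06), the only receptor called in that comparison. Stat2 was lower there too. humanFGF2 called 4 receptors higher, Osmr, Csf2rb (0.82), Ifngr2 (0.55) and Il6r (0.51), and 2 lower, Lifr and Il11ra1 (-0.56, named after its value was seen). F2V2 called Osmr, Csf2rb (1.11) and Il4r (0.65), the receptor that feeds Stat6, higher and none lower. Ifnar1, the type I interferon receptor subunit, differed from Control by -0.37 with humanFGF2 and -0.20 with F2V2, under 1.4-fold.

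The interferon targets of Stat2 separated F2V2 from the other ligands. Of 40 listed genes 26 were measured, 3 of them with means under 5. F2V2 called 22 higher and none lower than Control (median log2 difference 0.67), whereas humanFGF2 called 2 higher and 8 lower (median -0.22) and wtFGF2 likewise 2 higher and 8 lower (median -0.13). Set directly against each other, 22 of the 26 were lower with humanFGF2 than with F2V2, none was higher, and the 26 differences ran from -2.41 to -0.26. wtFGF2 was lower than F2V2 for 19, and between wtFGF2 and humanFGF2 none was called by limma with or without its shared prior (5 at an unadjusted p under 0.05). With each array left out in turn, F2V2 called 15 to 22 higher, and the wtFGF2 count of lower genes was 5 without Control replicate 2, wtFGF2 replicate 2 or wtFGF2 replicate 4. Irf9, the DNA-binding part of ISGF3, rose with F2V2 by 0.54 (adjusted p = 0.000991) and was lower with humanFGF2 than with F2V2 (log2 difference -0.84, adjusted p = 6.07e-05). Gbp5, an interferon-induced GTPase, rose with F2V2 by 1.33 and differed by -0.22 with humanFGF2. Ifih1, a sensor of viral RNA, rose with F2V2 by 0.70. Cmpk2 and Ifi44 followed the course of Stat2: they fell with humanFGF2 by 1.22 and 0.97 and differed by -0.03 each with F2V2. Tap1, the peptide transporter of antigen presentation, and the chemokine Cxcl10 rose with both, Tap1 by 0.95 and 1.22 and Cxcl10 by 2.37 and 2.86. The interferon target Socs1 was highest with F2V2 as well, at the sizes given above.

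**Figure D3:**
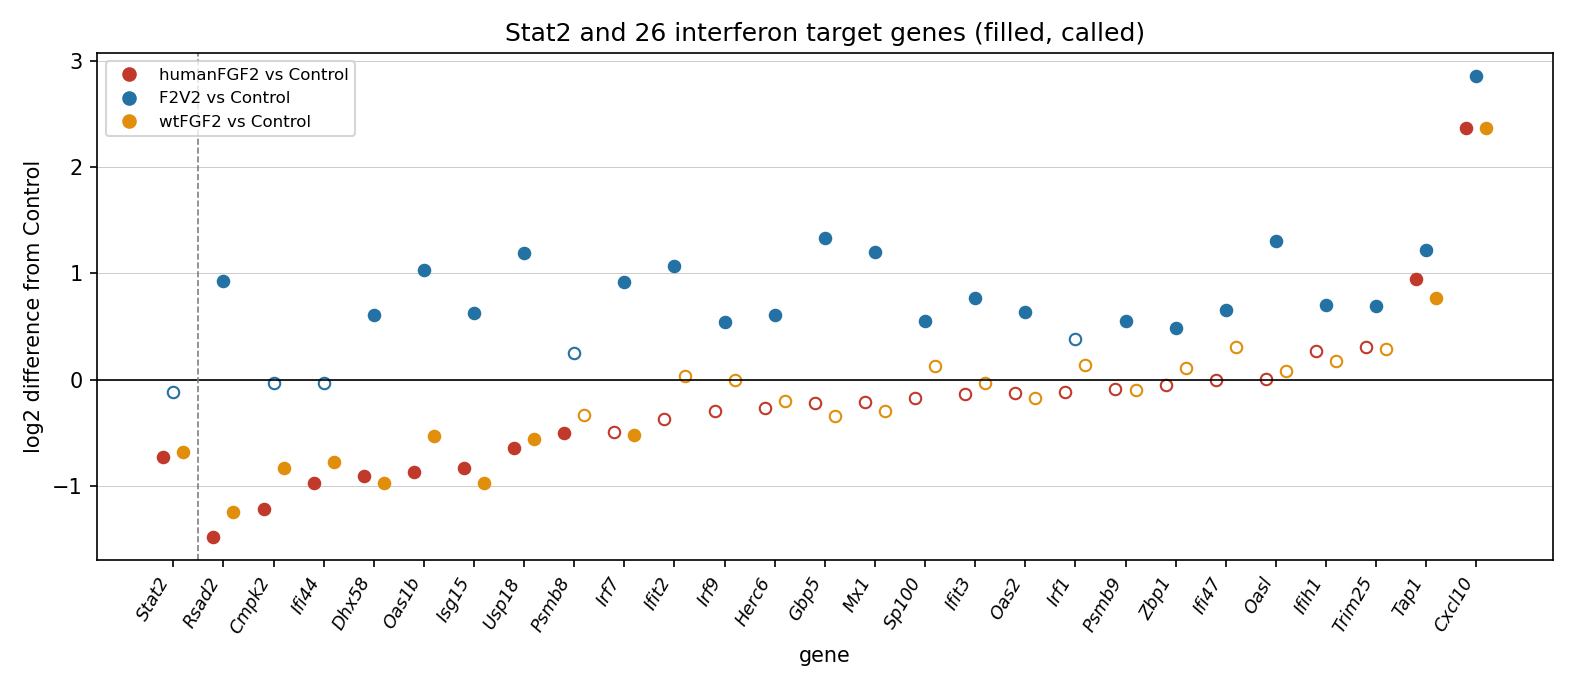
Log2 difference from Control (vertical axis) with each ligand for Stat2 and the 26 measured interferon target genes (horizontal axis, ordered by the humanFGF2 difference); filled points were called. F2V2 points lie above the humanFGF2 point of the same gene for all 26 targets, and 22 of them were called higher than Control.

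Of these 26 genes, 20 had a promoter entry, 9 of which (45%) held GAAANNGAAA and 5 (25%) TTCNNNGAA, beside the 3.41% and 7.67% of all promoters. The matches of 4 genes named above are shown with 10 bases on each side, to be read beside the Socs1 promoter; the capitals are the match on either strand.
Ifi44, chr2:243303847-243303876, minus strand: gcacactgagTTTCAGTTTCatttcccagg
Gbp5, chr2:233910933-233910962, plus strand: acttgtgtagTTTCAATTTCagtttagagg
Ifih1, chr3:67684008-67684037, minus strand: gaagagaatcGAAACAGAAAccgatgtgtg
Tap1, chr20:4668645-4668674, minus strand: cggtggctgcTTTCGGTTTCttcttcctct

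Reading the capitals, Ifi44, Gbp5 and Tap1 carry the element on the opposite strand and Ifih1 on the strand of the gene, as Socs1 does.

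Stat3 targets were largely higher with every ligand. Of 22 listed, 13 were measured; humanFGF2 called 7 higher and 1 lower, F2V2 10 higher and none lower, and wtFGF2 9 higher and none lower, with medians of 0.85, 1.20 and 0.86. Several of them also answer to growth factors directly, such as Myc, Fos and Junb. Myc rose by 1.83 with humanFGF2 and 1.20 with F2V2, Timp1, an inhibitor of metalloproteases, by 1.49 and 1.21, and Junb by 1.14 and 1.05. The 3 targets that were lower with humanFGF2 than with F2V2, named after their values were seen, were Lcn2 (-1.87), Serpina3n (-1.92) and Bcl3 (-0.93). Lcn2 and Serpina3n, genes of reactive astrocytes and the acute phase, rose with F2V2 by 1.77 and 1.86 and differed from Control by -0.09 and -0.06 with humanFGF2. With wtFGF2, Serpina3n (1.17) and Bcl3 (0.95) were called higher than Control, while Lcn2 differed by -0.31. Serpina3n was also called higher with wtFGF2 than with humanFGF2 (1.23). Stat3 itself was highest with F2V2 on these arrays, at 1.22-fold.

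**Figure D4:**
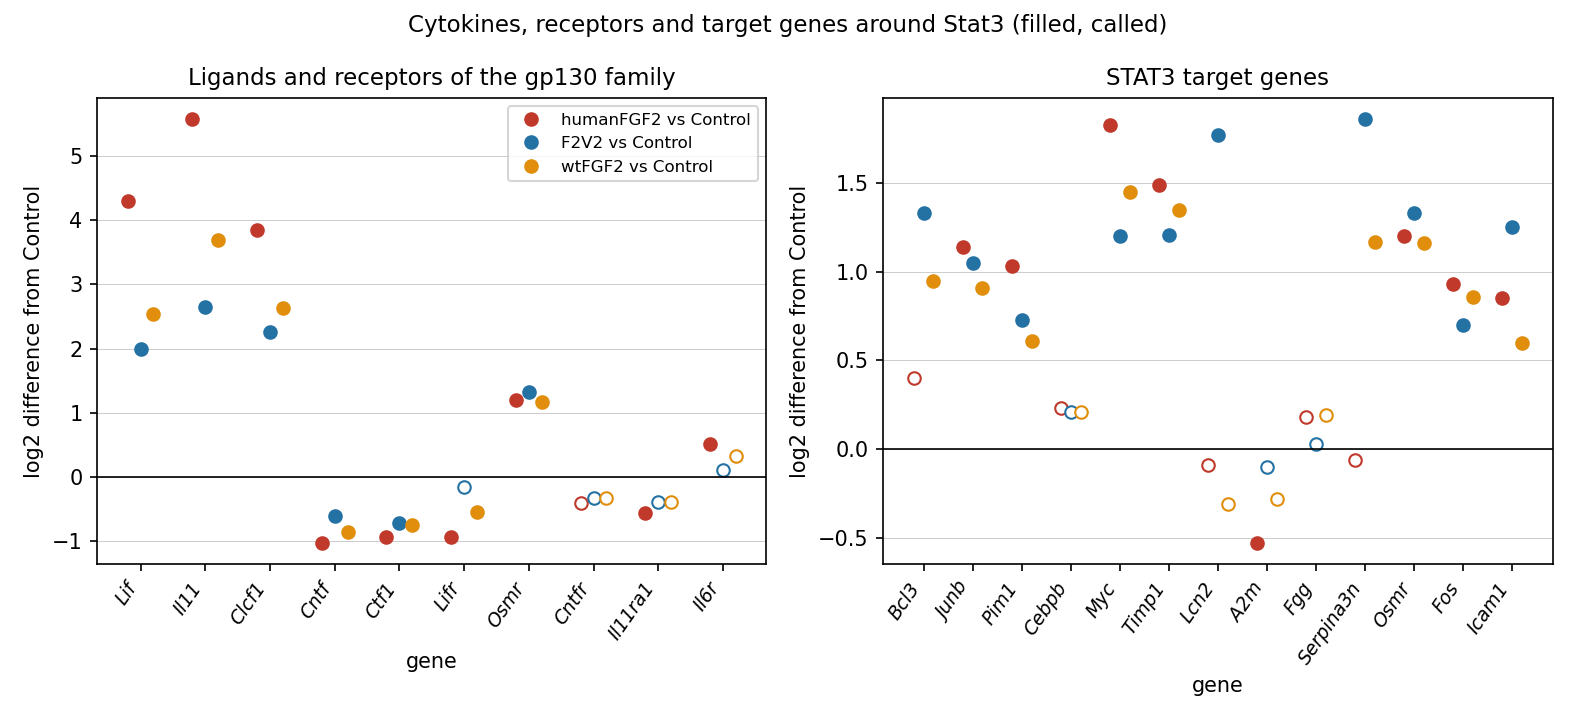
Log2 difference from Control (vertical axis) with each ligand for cytokines and receptors of the gp130 family (left) and the 13 measured Stat3 targets (right, horizontal axis gene); filled points were called. Lif, Il11 and Clcf1 rose with all 3 ligands, most with humanFGF2 (3.85 to 5.57), whereas Lcn2 and Serpina3n rose with F2V2 by 1.77 and 1.86 and not with humanFGF2. Serpina3n also rose with wtFGF2, by 1.17.

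Of 18 listed Stat5 and Stat6 targets, 13 were measured, 6 of them with means under 5. humanFGF2 called 2 higher and 1 lower, F2V2 3 higher and 1 lower and wtFGF2 1 higher and 1 lower, beside 10.4%, 5.74% and 6.99% of all clusters called higher and 8.72%, 3.64% and 6.1% lower with the 3 ligands. Without the shared prior of limma, humanFGF2 called 2 of the 13 and F2V2 3, in either direction. The medians lay between -0.01 and 0.02. Cish, also counted among the inhibitors above, and the kinase Pim1 (1.03, also listed under Stat3) were the 2 that rose with humanFGF2. F2V2 raised Pim1 (0.73), Il4r (0.65) and Ccl11, a chemokine induced by interleukin 4 (0.49, read as a lower bound). Bcl6, a repressor that competes with STATs for their sites, differed by -0.21 with humanFGF2.

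Among all genes with a cluster of their own, those whose course over the 16 arrays most resembled that of a member were found by Pearson's correlation, given as a description since the arrays share groups. Those closest to Stat2 were Ifgga2l1 (0.97), Adamts12 (0.97) and Oasl2 (0.961). Ifgga2l1 and Oasl2 belong to families induced by interferon, and both fell with humanFGF2 by 1.60 and differed from Control by -0.12 and 0.09 with F2V2. Stat4 most resembled Egr2 (0.969), an immediate early transcription factor, Tfpi2 (0.955) and Rem2 (0.953), which all stood highest with humanFGF2. For Stat5a the closest were Elavl1 (0.967), Ttll4 (0.967) and Vars1 (0.961), for Stat6 Efnb1 (0.953), LOC100363014 (0.943) and Esm1 (0.942), and for Socs2 Tpx2 (0.968), a protein of the mitotic spindle, Cd80 (0.966) and Fam111a (0.966). The Socs2 set shared its form: Tpx2 read 8.43 in Control and 9.32, 9.22 and 9.30 with humanFGF2, F2V2 and wtFGF2.

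Markers of the cells in the cultures moved with the ligands. The labelled cultures expressed markers of neurons, oligodendrocytes, astrocytes and microglia, with no marker of these lists under a mean of 5 over the 16 arrays. Gjb6, 1 of the astrocyte markers, fell from a mean of 6.86 in Control to 4.39 with humanFGF2, near the floor. The mean level of the 7 measured oligodendrocyte markers lay between 10.27 and 10.46 on Control arrays, 9.20 and 9.42 with humanFGF2, 9.86 and 10.03 with F2V2 and 9.56 and 9.62 with wtFGF2; all 7 were called lower with humanFGF2 and 2 with F2V2. For the 5 measured astrocyte markers the ranges were 10.93 to 11.18, 9.68 to 9.76, 10.43 to 10.64 and 10.15 to 10.39, with 4 called lower with humanFGF2 and 1 with F2V2. Both lists were lower with F2V2 than in Control on every array, with median differences of -0.35 and -0.27, against -0.95 and -0.83 with humanFGF2. Microglia markers, 11 measured, ranged from 7.99 to 8.36 in Control, 7.99 to 8.18 with humanFGF2, 8.27 to 8.35 with F2V2 and 8.07 to 8.39 with wtFGF2, with 2 called lower with humanFGF2, 2 higher with F2V2 and 1 higher with wtFGF2. Fibroblast and pericyte markers, 8 measured, ranged from 8.17 to 8.67, 8.20 to 8.79, 8.51 to 8.76 and 8.36 to 8.75. With humanFGF2, 3 of these were called lower and 1, Rgs5, higher by 2.87, and the median of the 8 was -0.41. Without the shared prior of limma, 3 of the 8 were called. F2V2 and wtFGF2 each called only Rgs5, higher. Of 9 neuron markers measured, Gap43 was called higher with humanFGF2 and wtFGF2, and none was called with F2V2. Their medians were -0.31 with humanFGF2, -0.21 with F2V2 and -0.20 with wtFGF2. Of 7 oligodendrocyte progenitor markers, humanFGF2 called 3 lower and none higher, and F2V2 and wtFGF2 each 2 higher and 1 lower. Of all clusters, humanFGF2, F2V2 and wtFGF2 called 10.4%, 5.74% and 6.99% higher and 8.72%, 3.64% and 6.1% lower. The part of these shifts in the values of the members was not tested. Arrays of a group correlated at 0.996 to 0.998 over the tested clusters.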

How the data were processed

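RNA for 16 arrays (4 groups of 4) was labelled with the Ambion WT kit and hybridised to Affymetrix Rat Gene 2.1 ST arrays. The deposited log2 value of each transcript cluster had been computed by the authors in Partek Genomics Suite 6.6, by GCRMA normalization of probe sets and a one-step Tukey's biweight summary. Values ran from 3.02 to 14.49. The genome build is not given in the sources used here. Fold changes and p-values in the authors' supplementary sheet were not used.

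Of 36685 clusters, 16377 with a gene symbol were tested, 724 of them named only from the identifier and symbol columns of the study's supplementary table, of which part was read. Clusters with several symbols (829) were tested and not named. Each of the 8 measured members had 1 cluster, named by the platform; where a gene has several, the cluster with the highest mean was used. Members and gene lists were chosen with earlier results of these data known.

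limma 3.58.1 (lmFit, eBayes) in R 4.3.3 was fitted on Control, humanFGF2 and F2V2, and on all 4 groups for comparisons with wtFGF2, with Benjamini-Hochberg adjustment over all tested clusters and two-sided tests. Calls needed an adjusted p under 0.05 and 1.4-fold, as in the study's methods, which used one-way ANOVA. Differences whose lower group mean was under 5 were read as lower bounds, a reading that was not tested. The study describes the arrays of a group both as independent cultures and as technical replicates, so a p-value here reflects only how much these arrays differ. The number of arrays limits the precision. The median SD within a group was 0.08 to 0.109 on the log2 scale. The fit was tested on simulated data with known changes.

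Named genes are all members; per pathway list the 4 genes with the lowest adjusted p with humanFGF2 and the 4 with F2V2; the 3 genes most correlated with each member whose group means span 1.4-fold; and Il6st, Lifr, Osmr, Lif, Il11, Clcf1, Ifnar1, Ifnar2, Irf9, Jak1, Jak2 and Tyk2. Markers of T and NK cells, endothelial cells, fibroblasts and 5 kinds of neural and glial cells were also counted; of 6 endothelial markers measured, 4 had means under 5 and 1 was called higher with each ligand. Replicate numbers shared by the groups were checked by correlating deviations from the group means, and alternatives are given in the closing section; those for counts over the pathway lists were chosen after seeing the data.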

Additional observations from a re-analysis of the deposited data

Results flagged for a closer look

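In the 32 sets of 4 arrays (8 members in 4 groups), 1 array lay apart from the other 3 of its group by more than the limit that chance passes in about 1 in 20 groups. It was Stat5a on humanFGF2 replicate 3, at 7.51, where the other arrays read 7.67 to 7.70. The gap was 0.848 of the range of the group, against a limit of 0.829. Without any single array the humanFGF2 difference of Stat5a from Control stayed between 0.68 and 0.80.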

How the results depend on the processing

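The 9 called member changes were recomputed under the alternatives, 166 values in all: 158 kept direction and call, 8 kept direction and fell below the fold threshold, and none reversed. The 8 all concern Stat5a and Socs2 with wtFGF2 against Control. With no fold threshold, the number of members called was 4 for F2V2 against Control, 6 for wtFGF2 against Control, 4 for humanFGF2 against F2V2 and 1 for wtFGF2 against humanFGF2. Subtracting the median of each array left 1 member called for wtFGF2 against Control (Stat2), since Stat5a (0.485, just under the threshold) and Socs2 (0.48) had stood close to it. With each array left out in turn, members called ranged from 4 to 5 for humanFGF2, 0 to 1 for F2V2 and 1 to 4 for wtFGF2 against Control, and were 1 for humanFGF2 against F2V2, 0 for wtFGF2 against humanFGF2 and 1 for wtFGF2 against F2V2. Without wtFGF2 replicate 4 the wtFGF2 count was 1, and without Control replicate 4 or F2V2 replicate 1 the F2V2 count was 1.

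Changes of sign were confined, under the alternatives run, to differences that had not been called. Under quantile normalization Stat3 with humanFGF2 was -0.01 and Socs2 between humanFGF2 and F2V2 was -0.013; with array medians subtracted the latter was -0.006. With each array left out, the ranges that crossed 0 were -0.018 to 0.055 for Socs2 between humanFGF2 and F2V2, -0.006 to 0.111 for Stat5b with F2V2, -0.05 to 0.028 for Stat5b and -0.017 to 0.098 for Socs1 with wtFGF2, and -0.006 to 0.159 for Stat6 between wtFGF2 and F2V2.

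With the replicate number as a block, members called were 4, 0 and 3 for humanFGF2, F2V2 and wtFGF2 against Control, 1 for humanFGF2 against F2V2, 0 for wtFGF2 against humanFGF2 and 1 for wtFGF2 against F2V2, the counts without the block. The numbers were not taken to pair the arrays: deviations of same-numbered arrays correlated at -0.166 to 0.221, over 0.1 in 2 of 24 pairs. Testing all clusters on the array called 5078 clusters with humanFGF2, 2386 with F2V2 and 3457 with wtFGF2, against 3125, 1536 and 2144; without the fold threshold the counts were 7533, 5493 and 6487, and between ligands 3532 (humanFGF2 against F2V2), 1360 (wtFGF2 against humanFGF2) and 632 (wtFGF2 against F2V2), against 942, 316 and 230. Stat4 is not among the clusters left when dim clusters are removed, so its difference has no value there. Signal near the floor limits Stat4 and most of the cytokines.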
